A study of Mus musculus with 16 samples.

Results

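The 8 genes described here encode components and regulators of the complement system, and were chosen by name from the 25791 gene symbols of the expression table. They are C1qa, C1qb and C1qc, which encode the chains of the recognition protein C1q, the cascade components C3, C4b and Cfb, the receptor gene C3ar1 and the membrane regulator gene Cd55. All 8 were found, and each was read in 16 libraries of glomerular RNA, 7 from RAAS-blocked and 9 from untreated mice.

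All 16 libraries came from eNOS-/-//db/db mice on a standard diet. These mice lack endothelial nitric oxide synthase and carry the diabetes mutation of the leptin receptor, so both alterations are shared by the untreated group, and mice without them were not analysed here. The RAAS-blocked mice drank water that held lisinopril at 20 mg/day, a drug against angiotensin-converting enzyme. Losartan, which blocks the angiotensin II type 1 receptor, was added at 30 mg/day. Both act on the renin-angiotensin-aldosterone system (RAAS) and were given between 10 to 12 and 26 weeks of age. Glomeruli, the filtering capillary tufts of the kidney, were collected from 1 kidney per mouse with iron perfusion and a magnet. The labels give kidney as the source, while their protocol describes glomerular RNA. The age of the untreated mice at collection is not given in the sample labels.

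Complement is a cascade of plasma and cell-surface proteins that marks targets for removal and recruits inflammatory cells. C1q binds antibody complexes and dying cells and starts the classical pathway through the proteases C1r and C1s, which lead to cleavage of C4, C2 and then C3. Factor B, the product of Cfb, amplifies C3 cleavage in the alternative pathway, the fragment C3a signals through the receptor encoded by C3ar1, and CD55 speeds the decay of the C3-cleaving enzymes on the body's own cells. Macrophages are a major source of C1q in tissues, whereas plasma C3 comes mainly from the liver.

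Values are FPKM, fragments scaled by transcript length and by the fragments mapped in the library, which can be compared between genes per length. Fold changes are RAAS-blocked minus untreated on the log2(FPKM + 1) scale with their SE. The added 1 makes a fold change of a low gene look smaller than it is. A gene was tested if 7 or more libraries had it at 1 FPKM or above, which left 13286 genes. Libraries held 16919 to 18613 symbols above 0, and 0 pairs of libraries were identical. Podocyte markers were abundant, with Nphs1 (nephrin) between 181 and 470 FPKM, and T cell and hepatocyte markers had 0 tested members of 8 and 6 listed. The sample numbers in the labels form 2 runs, of which 0 hold both groups, so anything that went with these runs and the treatment cannot be told apart.

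A pair of libraries stood apart in genes that bear on these members. Untreated replicate 3 had the highest level of macrophage markers, with Csf1r, the receptor for macrophage colony-stimulating factor, at 149.8 FPKM against 7.60 to 24.1 FPKM in the other untreated libraries. RAAS-blocked replicate 6 had the highest level of interferon-gamma response genes, with the guanylate-binding protein gene Gbp2 at 1466 FPKM against 5.73 to 22.4 FPKM in the other RAAS-blocked libraries. Within its group it also differed in cell markers. Its podocyte markers summed to 5426 FPKM, with RAAS-blocked replicate 0 next in the group at 3077 FPKM. Its proximal tubule markers had the lowest sum of the group, 57.6 FPKM, with RAAS-blocked replicate 4 next at 126 FPKM. Untreated libraries had similar sums, with podocyte markers at 5155 FPKM in untreated replicate 6 and proximal tubule markers at 57.3 FPKM in untreated replicate 0.

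None of the members passed the test between the groups. Of the 8, 7 passed the filter on low values, and 0 of these 7 had a limma adjusted p under 0.05, beside 0.0151% of all genes tested (2 of 13286). At an unadjusted p under 0.05 the count was 0 of 7 by limma, beside 6.13% of all genes (814 of 13286). The exact permutation test over all 11440 labellings also gave 0 members at an unadjusted p under 0.05, and 0 genes after adjustment. The smallest p this test can give is 8.74e-05. Adjustment over 13286 genes therefore left little room for any gene to pass, and the 0 after adjustment says little. Of the 7 members 5 had higher and 2 lower mean log2 levels in RAAS-blocked libraries, with a median log2 fold change of 0.41, beside a median of -0.02 over all genes tested. Of the 7, 3 are C1q chains, which vary together. The groups overlapped for every member, while 0.0602% of all genes (8 of 13286) had groups that did not overlap.

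**Figure D1:**
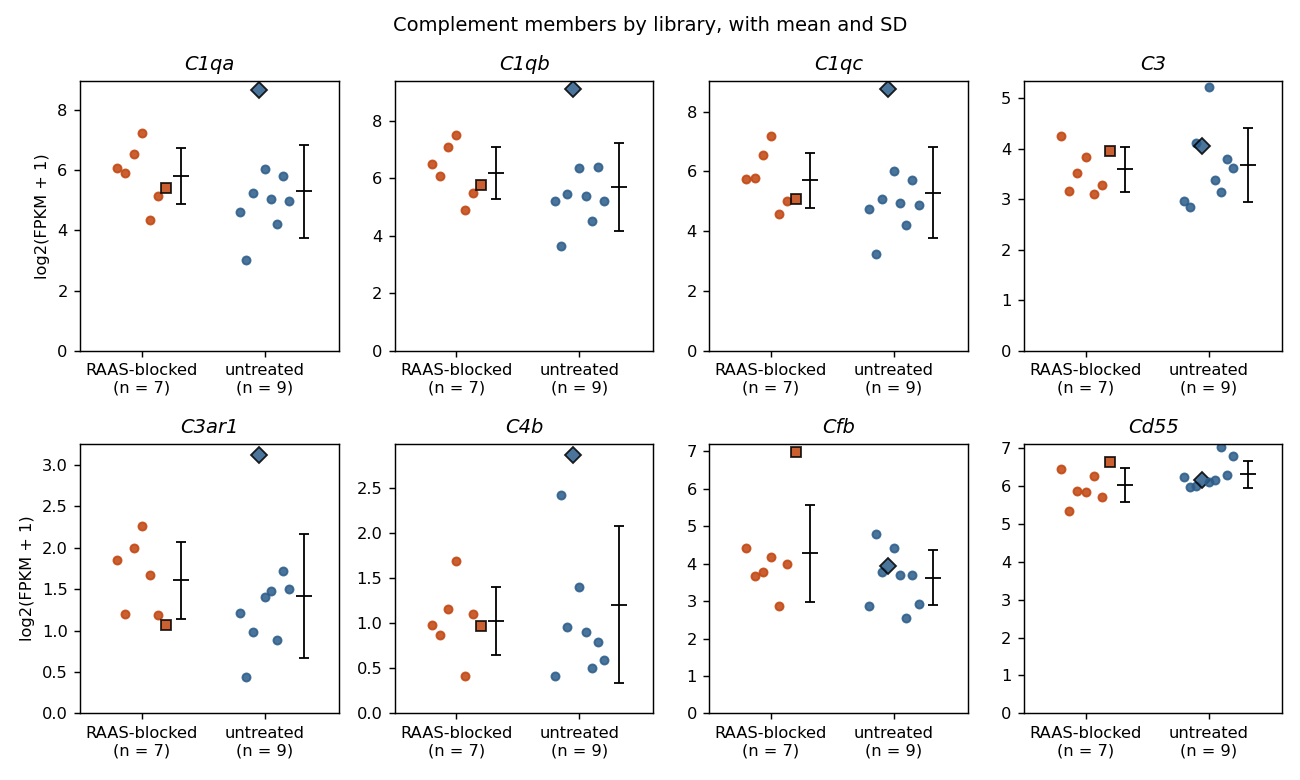
Levels of the 8 members as log2(FPKM + 1) in each library, RAAS-blocked (orange, n = 7) on the left and untreated (blue, n = 9) on the right, with the group mean and SD as black bars. The square marks RAAS-blocked replicate 6, highest for Cfb at 125 FPKM, and the diamond marks untreated replicate 3, highest for the 3 C1q chains, C3ar1 and C4b; the groups overlap in every panel.

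The members differed widely in abundance and in how far they varied. By the mean over all 16 libraries the order was C1qb at 93.7 FPKM, Cd55 at 74.1, C1qa at 70.9 and C1qc at 69.6 FPKM, then Cfb at 20.3, C3 at 12.7, C3ar1 at 2.13 and C4b at 1.49 FPKM. The first 4 lay at percentiles 91.1 to 93.9 of the tested genes by mean level, and neighbours among them differed by less than the SD of either gene in either group. Cfb and C3 overlapped in their ranges, as did C3ar1 and C4b. C3ar1 was at percentile 10.3 and C4b at percentile 5.31. The spread within groups was at percentile 91.3 or above among tested genes for 7 of the 8, and at percentile 78.4 for Cd55. The pooled SD on the log2 scale was 1.30 to 1.32 for the C1q chains, 1.01 for Cfb, 0.63 to 0.70 for C3, C3ar1 and C4b and 0.40 for Cd55, beside a median of 0.23 over the tested genes. Cd55 was the steadiest, with a 3.27-fold range from the lowest to the highest library, and C1qa the most variable, with a 57.0-fold range.

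The 3 C1q chains had higher medians but lower arithmetic means in RAAS-blocked libraries, and the difference was smaller than the spread. C1qa was at 19.5 FPKM in the lowest, 59.1 in the median and 148 FPKM in the highest RAAS-blocked library, against 7.16, 32.2 and 408 FPKM in the untreated group. C1qb was at 28.7, 66.6 and 179 FPKM in RAAS-blocked libraries, against 11.5, 40.4 and 552 FPKM in untreated libraries. C1qc was at 22.7, 52.2 and 144 FPKM in RAAS-blocked libraries, against 8.52, 30.0 and 428 FPKM in untreated libraries. For each chain the lowest library was untreated replicate 1 and the highest was untreated replicate 3, so the untreated range enclosed the whole RAAS-blocked range. In each case 6 of 7 RAAS-blocked libraries lay above the untreated median.

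Arithmetic means of C1qa were 65.6 ± 43.2 FPKM in RAAS-blocked libraries (SD, n = 7) and 74.9 ± 126 FPKM in untreated libraries (SD, n = 9). The log2 fold change of C1qa was 0.51 ± 0.62, with a 95% interval from -0.80 to 1.83 and a limma adjusted p of 0.932. C1qb had 0.49 ± 0.61 (limma adjusted p = 0.934) and C1qc 0.41 ± 0.61 (limma adjusted p = 0.942). Exact permutation of the group means of log2 levels gave p = 0.463 for C1qa, 0.480 for C1qb and 0.557 for C1qc, two-sided. Without untreated replicate 3 the untreated mean of C1qa was 33.2 ± 18.6 FPKM (SD, n = 8), and the log2 fold changes were 0.94 for C1qa, 0.92 for C1qb and 0.84 for C1qc, with limma adjusted p of 0.674, 0.670 and 0.686. Without untreated replicate 1, the lowest for each chain, they were 0.23 for C1qa, 0.23 for C1qb and 0.16 for C1qc (limma adjusted p = 0.992 each). Without RAAS-blocked replicate 3 they were 0.28 for C1qa, 0.27 for C1qb and 0.16 for C1qc (limma adjusted p from 0.945 to 0.967). In bulk RNA, fewer cells of a type and less RNA per cell cannot be told apart.

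The chains kept similar proportions across libraries. C1qb had the highest FPKM of the 3 in 16 of 16 libraries, C1qc the lowest in 11 and C1qa the lowest in 5. The ratio of C1qa to C1qb averaged 0.767 ± 0.0746 in RAAS-blocked and 0.753 ± 0.0894 in untreated libraries (SD, n = 7 and 9; exact permutation p = 0.713, adjusted over 3 ratios 0.713). The ratio of C1qc to C1qb averaged 0.713 ± 0.0924 in RAAS-blocked and 0.748 ± 0.0558 in untreated libraries (exact permutation p = 0.336, adjusted 0.504). The ratio of C1qa to C1qc averaged 1.09 ± 0.146 in RAAS-blocked and 1.01 ± 0.0903 in untreated libraries (exact permutation p = 0.223, adjusted 0.504). While the level of C1qb spanned a 48.1-fold range, the C1qa to C1qb ratio stayed between 0.624 and 0.888. The C1qc to C1qb ratio lay between 0.583 and 0.811, and the C1qa to C1qc ratio between 0.840 and 1.27. Without RAAS-blocked replicate 4 the C1qa to C1qc ratio had an exact permutation p of 0.0480 (adjusted 0.144).

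C3ar1, the gene of the C3a receptor, was low and followed the same libraries. It was at 1.10 FPKM in the lowest, 2.18 in the median and 3.80 FPKM in the highest RAAS-blocked library, against 0.354, 1.66 and 7.70 FPKM in untreated libraries. Untreated replicates 1 and 3 were again the lowest and the highest of all 16, and the untreated range enclosed the RAAS-blocked one. The means were 2.18 ± 1.02 FPKM in RAAS-blocked and 2.09 ± 2.19 FPKM in untreated libraries (SD, n = 7 and 9). Its log2 fold change was 0.19 ± 0.30 (limma adjusted p = 0.946; exact permutation p = 0.584), and 0.40 without untreated replicate 3 (limma adjusted p = 0.709). It was 0.07 without untreated replicate 1 and 0.08 without RAAS-blocked replicate 3 (limma adjusted p = 0.992 and 0.970). With both untreated replicate 3 and RAAS-blocked replicate 6 left out (chosen after seeing the data), C3ar1 had a log2 fold change of 0.49. These libraries held its highest untreated and lowest RAAS-blocked values, so leaving them out had to raise the fold change. The limma p was 0.039 unadjusted and 0.601 adjusted. In that setting 1 of the 7 tested members and 1058 of 13286 genes had an unadjusted limma p under 0.05.

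C3ar1 and the C1q chains varied together across libraries, and with the macrophage markers. Of 28 pairs of members, 6 passed an adjusted permutation p of 0.05 for both Pearson r and Spearman rho. Of these, 3 were the pairs of C1q chains, with r from 0.993 to 0.994 (adjusted permutation p = 9.33e-05 each, from a raw p of 1e-05, the smallest that 100000 resamples give). The other 3 were C3ar1 with C1qa (r = 0.88), with C1qb (r = 0.91) and with C1qc (r = 0.91). For C3ar1 with C1qb the raw permutation p was 3e-05 (adjusted 0.00021), and rho was 0.73 (raw permutation p = 0.00171, adjusted 0.00958). Its r was 0.75 without untreated replicates 3 and 1, the libraries farthest from the median of C1qb, and 0.70 within RAAS-blocked and 0.96 within untreated libraries.

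**Figure D2:**
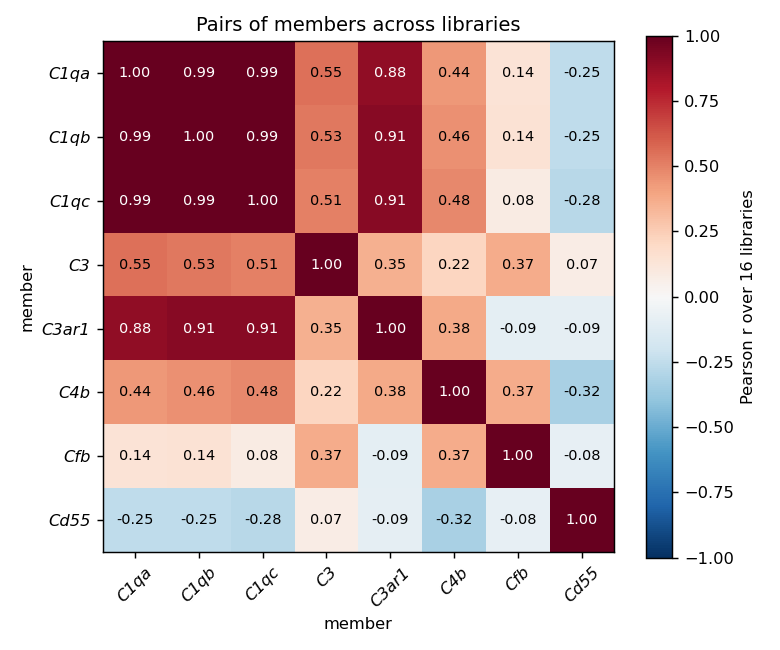
Pearson r of log2(FPKM + 1) between each pair of the 8 members over 16 libraries, from -1 (blue) to 1 (red). The 3 C1q chains and C3ar1 form a block with r of 0.88 or more, while Cfb and Cd55 have r between -0.32 and 0.37 with the other members.

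The macrophage list, chosen with earlier results of these data known, holds 15 genes, and 15 of 15 passed the filter. All 15 had higher mean log2 levels in RAAS-blocked libraries and 0 passed the test, with a median log2 fold change of 0.39. Their summed level was 344 to 1342 FPKM in RAAS-blocked and 208 to 2624 FPKM in untreated libraries, and 0 of the markers were at 0 everywhere. C1qb followed the mean log2 level of this list with r = 0.96 (permutation p = 1e-05, adjusted over 48 relations 0.00016) and rho = 0.93 (permutation p = 1e-05, adjusted 0.00024). The r was 0.90 without untreated replicate 3 and RAAS-blocked replicate 3, 0.94 within RAAS-blocked and 0.97 within untreated libraries. C1qa (r = 0.93), C1qc (r = 0.94) and C3ar1 (r = 0.88) also passed for both measures, and these were the only relations of the 48 to do so. With the macrophage level as a covariate, the log2 fold change was 0.05 ± 0.24 for C1qa, 0.02 ± 0.19 for C1qb, -0.05 ± 0.23 for C1qc and -0.02 ± 0.16 for C3ar1, with limma adjusted p from 0.986 to 0.994.

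**Figure D3:**
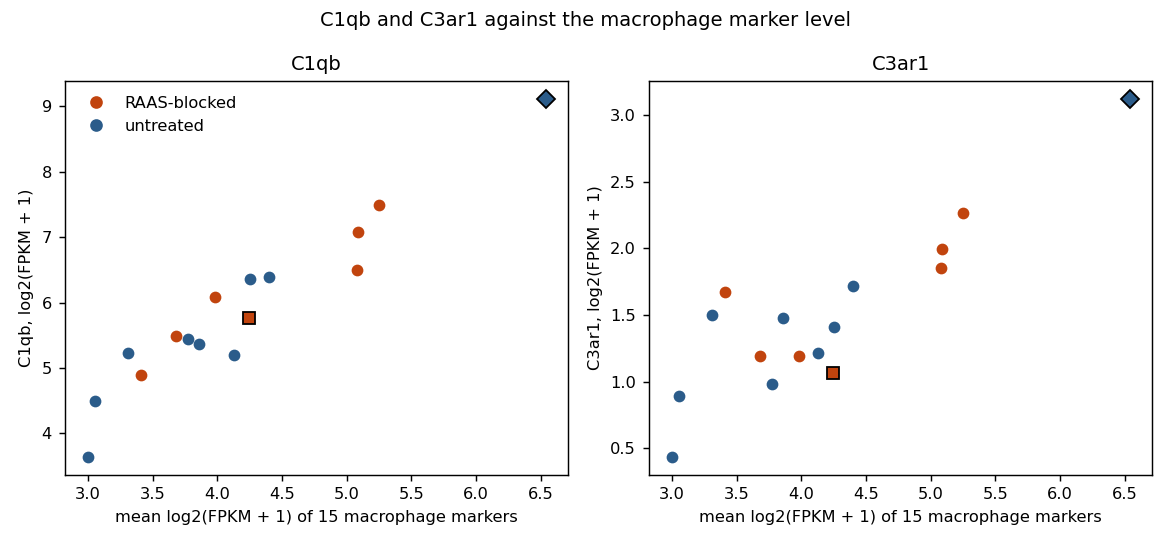
C1qb (left) and C3ar1 (right), as log2(FPKM + 1), against the mean log2(FPKM + 1) of 15 macrophage markers in each library, RAAS-blocked in orange and untreated in blue. Both genes go up with the marker level (r = 0.96 and 0.88), and untreated replicate 3 (diamond) lies at the top right; the square is RAAS-blocked replicate 6.

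Genes outside the members with the most similar profiles over 16 libraries were ranked by Pearson r among the 13286 tested. For C1qa they were Cx3cr1, the fractalkine receptor gene (r = 0.96), Emr1, a macrophage adhesion receptor gene now named Adgre1 (r = 0.96), and Cfp, which encodes properdin (r = 0.96). The same 3 genes led for C1qb, with Emr1 at 0.98, Cfp at 0.97 and Cx3cr1 at 0.97. For C1qc they were Cx3cr1 (0.97), Emr1 (0.97) and Rgs10, a regulator of G-protein signalling (0.96). C3ar1 was closest to Mmp12, the macrophage elastase gene (0.96), Rgs10 (0.93) and Pf4, which encodes platelet factor 4 (0.92). Cx3cr1 and Emr1 are in the macrophage list. Properdin stabilizes the C3-cleaving enzyme of the alternative pathway, and Cfp is itself a complement gene. All of these genes peaked in untreated replicate 3, where Emr1 was at 40.1 FPKM and Cfp at 91.8 FPKM.

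In RefSeq (GRCm38.p6) C1qb, C1qc and C1qa are neighbours on chromosome 4, in that order. C3ar1 lies on chromosome 6 between Foxj2 and Necap1. The promoter table held 5 of the 8 members, C1qb, C1qc, C3, C3ar1 and Cd55. The 250 bases before the start of the 3 among them that varied together are shown, 5′ to 3′ on the minus strand, with matches to any of 5 searched motifs in capitals.
C1qb, chr4:136886201-136886450: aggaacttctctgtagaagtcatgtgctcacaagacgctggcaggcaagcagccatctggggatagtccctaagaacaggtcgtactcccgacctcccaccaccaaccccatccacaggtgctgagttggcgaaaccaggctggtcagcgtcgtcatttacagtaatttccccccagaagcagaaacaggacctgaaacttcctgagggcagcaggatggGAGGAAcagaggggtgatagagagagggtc
C1qc, chr4:136892915-136893164: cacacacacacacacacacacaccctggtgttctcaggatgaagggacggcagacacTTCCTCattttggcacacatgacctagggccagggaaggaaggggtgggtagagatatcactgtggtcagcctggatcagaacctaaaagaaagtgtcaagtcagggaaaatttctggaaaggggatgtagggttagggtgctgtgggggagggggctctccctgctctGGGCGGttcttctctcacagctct
C3ar1, chr6:122856158-122856407: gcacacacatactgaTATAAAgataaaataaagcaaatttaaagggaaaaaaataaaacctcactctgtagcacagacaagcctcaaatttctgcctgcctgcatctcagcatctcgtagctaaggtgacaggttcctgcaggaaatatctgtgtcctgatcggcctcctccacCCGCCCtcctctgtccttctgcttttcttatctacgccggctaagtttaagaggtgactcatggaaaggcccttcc

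The motifs were searched on both strands and the matches did not overlap. GAGGAA, a core bound by PU.1, an Ets factor of macrophages, was found in C1qb 30 to 25 bases before the start and on the opposite strand of C1qc 193 to 188 bases before it, and 23.3% of 32851 promoters of the same length hold it. The GC box GGGCGG lies 24 to 19 bases before the start of C1qc and, on the opposite strand, 76 to 71 bases before that of C3ar1 (32.7% of promoters), and Cd55 has 2 matches. The TATA box TATAAA was found in C3ar1 only, 235 to 230 bases before the start (12.4% of promoters). A C/EBP motif, TTGCNNAA, was found in C3 only (9.56% of promoters), and the interferon-stimulated response element (ISRE) in 0 of the 5 (2.98% of promoters). With 5 promoters these shares cannot be compared with the background, and a match is a string of letters, not a measured site.

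Cfb, the gene of factor B, had a higher mean in RAAS-blocked libraries, where 1 library stood far above the others. It was at 6.36 FPKM in the lowest, 14.8 in the median and 125 FPKM in the highest RAAS-blocked library, against 4.90, 12.0 and 26.8 FPKM in untreated libraries. RAAS-blocked replicate 6 was the highest, and the next in its group was replicate 0 at 20.5 FPKM. The other 6 RAAS-blocked libraries lay inside the untreated range. The means were 29.8 ± 42.4 FPKM in RAAS-blocked and 12.9 ± 7.08 FPKM in untreated libraries (SD, n = 7 and 9). Its log2 fold change was 0.64 ± 0.47, with a 95% interval from -0.36 to 1.65 (limma adjusted p = 0.894; exact permutation p = 0.238). Without RAAS-blocked replicate 6 it was 0.19 ± 0.33 (limma adjusted p = 0.947).

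The same library had the highest values of genes that respond to interferon gamma. The list of 8 such genes had 7 tested, and all 7 had higher mean log2 levels in RAAS-blocked libraries, with 0 past the threshold. That direction rested on this library. Without it, a choice made after seeing the data, 1 of the 7 had a higher and 6 a lower mean log2 level in RAAS-blocked libraries, with a median difference of -0.19, and Gbp2 and Irf1 were among the 6. The summed level of the list was 98.6 to 3804 FPKM in RAAS-blocked and 116 to 527 FPKM in untreated libraries. In RAAS-blocked replicate 6 the transcription factor gene Irf1 was at 605 FPKM and the chemokine gene Cxcl9 at 157 FPKM, against at most 1.82 FPKM of Cxcl9 in the other 15 libraries. Cfb followed the mean log2 level of the list with r = 0.87 (permutation p = 0.0005, adjusted 0.0044), but rho was 0.65 (permutation p = 0.00767, adjusted 0.0614). The r was 0.63 without RAAS-blocked replicate 6 and untreated replicate 3, 0.97 within RAAS-blocked and 0.55 within untreated libraries. Without those 2 libraries the adjusted permutation p of r was 0.0895, so the relation no longer passed. With the proximal tubule level Cfb had r = 0.11 over all libraries (permutation p = 0.710, adjusted 0.942). That r was -0.59 within RAAS-blocked and 0.82 within untreated libraries, and 0.69 without untreated replicate 1 and RAAS-blocked replicate 6. Over 13 alternative fits, among them a fit with the proximal tubule level as a covariate, the log2 fold change of Cfb was 0.23 to 0.68. The part of the interferon-gamma genes in the Cfb values was not tested, and that of tubule content was not tested beyond that fit. The genes most like Cfb were Mov10, an RNA helicase gene (r = 0.91), Tapbpl, which encodes a tapasin-related protein of antigen presentation (0.88), and Gbp2 (0.87), each highest in RAAS-blocked replicate 6.

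**Figure D4:**
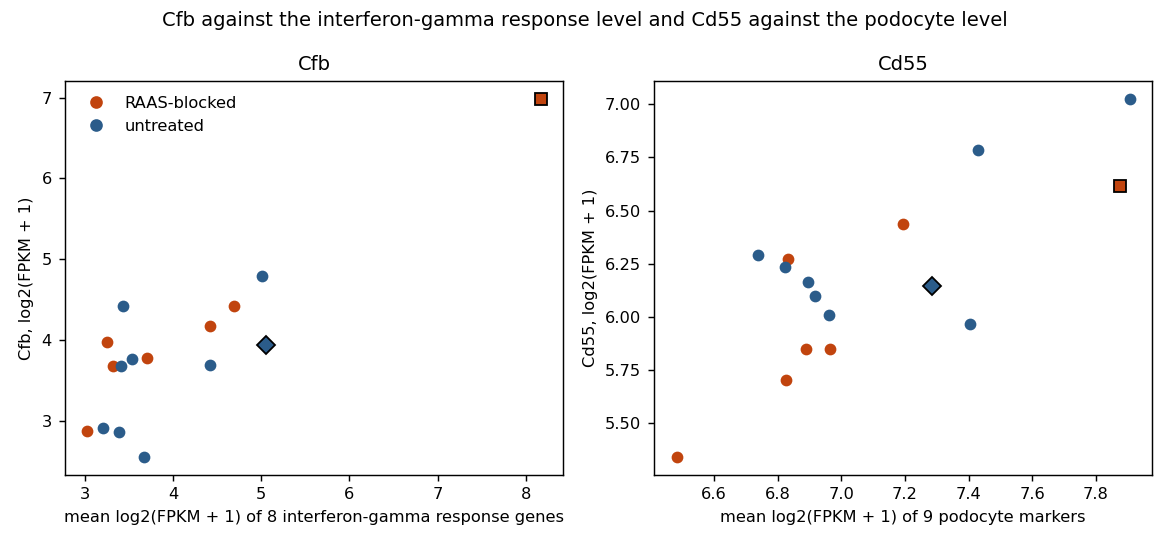
Left, Cfb against the mean level of 8 interferon-gamma response genes; right, Cd55 against the mean level of 9 podocyte markers, all as log2(FPKM + 1), with 1 point per library, RAAS-blocked in orange and untreated in blue. RAAS-blocked replicate 6 (square) lies alone at the top right for Cfb (125 FPKM), and the 2 highest Cd55 values belong to untreated replicates 6 and 8; the diamond is untreated replicate 3.

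C3, the central component of the cascade, was at moderate levels and did not differ beyond the spread. It was at 7.62 FPKM in the lowest, 10.5 in the median and 18.2 FPKM in the highest RAAS-blocked library, against 6.22, 11.3 and 36.4 FPKM in untreated libraries. Untreated replicate 4 held the highest value, and the RAAS-blocked range lay within the untreated one. The means were 11.5 ± 3.94 FPKM in RAAS-blocked and 13.7 ± 9.28 FPKM in untreated libraries (SD, n = 7 and 9). Its log2 fold change was -0.09 ± 0.30 with a 95% interval from -0.72 to 0.53 (limma adjusted p = 0.971; exact permutation p = 0.781), and it was 0.10 without untreated replicate 4. C3 ranked with the C1q chains but did not follow them on the log scale. With C1qa rho was 0.72 (permutation p = 0.00207, adjusted 0.00966) and r was 0.55 (permutation p = 0.0317, adjusted 0.127), or 0.49 without untreated replicates 3 and 1. The genes most like C3 were Ccng1, a cyclin gene (r = 0.79), Eef1g, of translation elongation (0.78), and Dcaf4 (0.76), weaker than the leading r of the other members.

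C4b, a component cleaved by C1s, was the lowest of the 8 and did not pass the filter, with at least 1 FPKM in only 6 libraries. It was at 0.332 FPKM in the lowest, 0.969 in the median and 2.22 FPKM in the highest RAAS-blocked library, against 0.334, 0.869 and 6.29 FPKM in untreated libraries. The 2 highest values were in untreated replicates 3 (6.29 FPKM) and 1 (4.37 FPKM), the libraries with the highest and the lowest C1q. The means were 1.10 ± 0.575 FPKM in RAAS-blocked and 1.79 ± 2.10 FPKM in untreated libraries (SD, n = 7 and 9). The difference of mean log2 levels was -0.18 (exact permutation p = 0.615), and it was 0.03 without untreated replicate 3. C4a, a near-identical copy, was at 0.116 to 0.526 FPKM and made up 7.73% to 46.3% of the sum of both genes, so reads could have been split between them and the C4b values are uncertain.

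C4b ranked with Cfb, with rho = 0.82 (permutation p = 0.00025, adjusted 0.00175), while r was 0.37 (permutation p = 0.149, adjusted 0.283). The r was 0.22 within RAAS-blocked and 0.74 within untreated libraries, and the difference between groups was not tested. Both genes were among the highest untreated values in replicate 1, where Cfb was at 26.8 FPKM. C4b with C1qa had r = 0.44 (permutation p = 0.0976, adjusted 0.228), 0.87 within RAAS-blocked and 0.40 within untreated libraries. Without untreated replicates 3 and 1 it was 0.86. For C4b with C1qc r was 0.48, and -0.22 without untreated replicate 3 and RAAS-blocked replicate 3. The genes most like C4b were Cndp2, a dipeptidase gene (r = 0.94), Hebp1, a heme-binding protein gene (0.94), and Aoah, which encodes an enzyme that inactivates lipopolysaccharide (0.90).

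Cd55, the gene of decay-accelerating factor, had the lowest unadjusted p of the members and lower levels in RAAS-blocked libraries, within the spread. It was at 39.6 FPKM in the lowest, 56.7 in the median and 97.2 FPKM in the highest RAAS-blocked library, against 61.5, 70.6 and 129 FPKM in untreated libraries. Of the 7 RAAS-blocked libraries 4 lay below the lowest untreated one, and the other 3, replicates 0, 4 and 6, lay among the untreated values. The means were 66.1 ± 20.7 FPKM in RAAS-blocked and 80.3 ± 23.1 FPKM in untreated libraries (SD, n = 7 and 9). Its log2 fold change was -0.29 ± 0.19, with a 95% interval from -0.70 to 0.11 (limma p = 0.147, adjusted p = 0.869; exact permutation p = 0.173). Without RAAS-blocked replicate 6 it was -0.39 (limma adjusted p = 0.716), and without RAAS-blocked replicate 1 it was -0.18 (limma adjusted p = 0.909). The copy Cd55b, listed under its older symbol Daf2, was at most 0.263% of the sum of both genes.

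Cd55 went with podocyte markers. Of 9 podocyte markers 8 were tested, and 7 of these had lower and 1 a higher mean log2 level in RAAS-blocked libraries, with 0 past the threshold. Their summed level was 1666 to 5426 FPKM in RAAS-blocked and 2128 to 5155 FPKM in untreated libraries, and Podxl, of the podocyte surface, was listed at 0 everywhere. Cd55 followed the mean log2 level of the list with r = 0.76 (permutation p = 0.00055, adjusted 0.0044), but rho was 0.51 (permutation p = 0.0445, adjusted 0.214). The r was 0.59 without untreated replicate 6 and RAAS-blocked replicate 6, 0.84 within RAAS-blocked and 0.67 within untreated libraries. With the proximal tubule level Cd55 had rho = -0.71 (permutation p = 0.00302, adjusted 0.0290) and r = -0.60 (permutation p = 0.0124, adjusted 0.0850), which was -0.57 without untreated replicate 1 and RAAS-blocked replicate 6. Over 13 alternative fits, among them a fit with the proximal tubule level as a covariate, the log2 fold change of Cd55 was -0.42 to -0.22. The part of podocyte content in the Cd55 values was not tested, and that of tubule content was not tested beyond that fit. The genes most like Cd55 were Schip1 (r = 0.93), Loxl2, a lysyl oxidase gene of matrix crosslinking (0.90), and Sec16b, of export from the endoplasmic reticulum (0.89). Loxl2 and Schip1 peaked, like Cd55, in untreated replicate 6.

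The rest of the complement system was read from 5 lists of 51 genes, chosen with earlier results of these data known, of which 50 were in the table and 25 tested. By limma 0 of the 25 passed the threshold. At an unadjusted p under 0.05 there were 5 of 25, all 5 higher in RAAS-blocked libraries, beside 2.71% of all genes tested that were higher at this p (360 of 13286). Of the 25 genes 19 had higher and 6 lower mean log2 levels. Their median log2 fold change was 0.30, beside a median of -0.02 over all genes tested. The split was also 19 to 6 without RAAS-blocked replicate 6, without untreated replicate 3 and without both. The lists hold copies and genes that vary together, so the 25 are not separate cases, and the split was not tested.

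**Figure D5:**
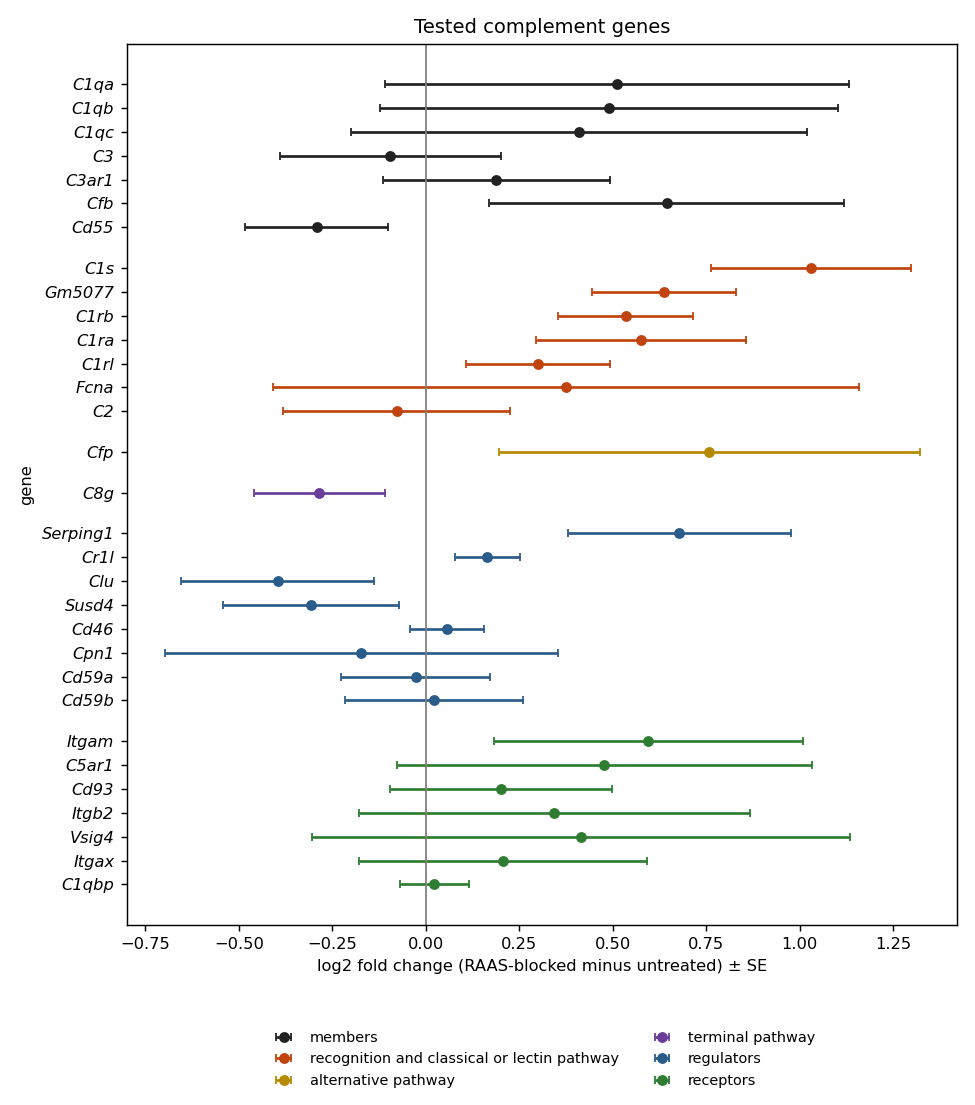
Log2 fold change (RAAS-blocked minus untreated) with its SE for the 7 tested members and 24 other tested complement genes, coloured by list. The other genes are ordered by p within each list, and the members are not. C1s lies farthest to the right at 1.03, while the C1q chains have SE bars of 0.61 to 0.62, and 0 of the genes pass the threshold.

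Genes of the proteases that act with C1q had higher means in RAAS-blocked libraries and did not pass the test. C1s, which cleaves C4 and C2, was at 24.8 FPKM in the lowest, 41.3 in the median and 76.8 FPKM in the highest RAAS-blocked library, against 9.85, 18.1 and 47.9 FPKM in untreated libraries. Untreated replicate 3 held the highest untreated value, and the next, replicate 0, was at 26.1 FPKM. The highest RAAS-blocked value was in RAAS-blocked replicate 6. C1s had a log2 fold change of 1.03 ± 0.27 (limma adjusted p = 0.443), and 1.19 without untreated replicate 3 (limma adjusted p = 0.0952). It was 0.88 without RAAS-blocked replicate 6 and 1.04 without both libraries, choices made after seeing the data. Gm5077, the copy named C1s2 in RefSeq, had means of 3.59 ± 1.45 FPKM in RAAS-blocked and 1.93 ± 0.876 FPKM in untreated libraries (log2 0.64 ± 0.19, limma adjusted p = 0.613). C1rb, a copy of the C1r gene, had 1.84 ± 1.06 FPKM in RAAS-blocked and 0.925 ± 0.516 FPKM in untreated libraries (log2 0.53 ± 0.18, limma adjusted p = 0.675). Reads of C1s and Gm5077, or of C1ra and C1rb, could have been split between copies, so these values are uncertain. Of 7 fibroblast markers 5 were tested, and all 5 had higher mean log2 levels, 0 of them past the threshold. Their summed level was 48.8 to 87.2 FPKM in RAAS-blocked and 23.9 to 70.7 FPKM in untreated libraries, and their part in the C1s and C1r values was not tested. Of 7 tested genes in the list of recognition and of the classical or lectin pathway, 6 had higher and 1 lower mean log2 levels.

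In the alternative pathway list, Cfp had means of 15.6 ± 8.11 FPKM in RAAS-blocked and 15.8 ± 28.7 FPKM in untreated libraries, with a log2 fold change of 0.76 ± 0.56 (limma adjusted p = 0.894). Untreated replicate 3 set the untreated mean. Without it the untreated libraries averaged 6.34 ± 3.29 FPKM (SD, n = 8), and the log2 fold change was 1.18 ± 0.36 (limma adjusted p = 0.439).

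Regulators were split, with 4 higher and 4 lower mean log2 levels of 8 tested and a median log2 fold change of -0.003. Serping1, the C1 inhibitor gene, had means of 99.6 ± 73.4 FPKM in RAAS-blocked and 57.4 ± 23.1 FPKM in untreated libraries (log2 0.68 ± 0.30, limma adjusted p = 0.800). Serping1 reached 266 FPKM in RAAS-blocked replicate 6. Leaving that library out gave a log2 fold change of 0.41 (limma adjusted p = 0.746). Cr1l, a membrane regulator of C3 cleavage, had a log2 fold change of 0.16 ± 0.09 (limma adjusted p = 0.830), and Clu, which encodes clusterin, of -0.40 ± 0.26 (limma adjusted p = 0.867). Of the terminal pathway, which builds the membrane attack complex, 1 of 7 genes was tested, C8g (log2 -0.28 ± 0.18, limma adjusted p = 0.862), and C8b was listed at 0 everywhere. All 7 tested receptors had higher mean log2 levels. Among them Itgam, a chain of complement receptor 3, had 0.60 ± 0.41, the C5a receptor gene C5ar1 0.48 ± 0.55 and Cd93 0.20 ± 0.30, with limma adjusted p from 0.882 to 0.942. C5ar1 had 0.21 and Cd93 0.06 without RAAS-blocked replicate 0 (limma adjusted p = 0.979 and 0.988). Neutrophils also carry these receptors, and of 8 neutrophil markers 5 were tested, 4 with higher and 1 with a lower mean log2 level. Their summed level was 67.0 to 2368 FPKM in RAAS-blocked and 28.6 to 865 FPKM in untreated libraries. The 15 macrophage markers all had higher mean log2 levels as well. C5ar1 was highest in untreated replicate 3, at 26.2 FPKM, and Itgam in RAAS-blocked replicate 0, at 24.4 FPKM. Over 13 alternative fits, among them a fit with the macrophage level as a covariate, the log2 fold change of Itgam was 0.34 to 0.69. For C5ar1 it was 0.08 to 0.74 and for Cd93 0.06 to 0.41. No fit used the neutrophil level, and beyond these fits the part of either marker list in the receptor values was not tested.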

How the data were processed

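16 TruSeq mRNA libraries of glomerular RNA were sequenced, per the labels' protocols. The deposited table holds FPKM made by the authors, with 1 column per library. Tools listed in the submitters' processing notes, without roles, are TopHat2 2.0.8 and Cuffdiff 2.2.1, with Cufflinks, FastQC and CASAVA 1.8.2. No source used here gives the genome build, annotation or strand setting, so reads of genes that overlap or lie antisense may be mixed. Depth is not given. Steps between low values put the libraries at 1 to 1.69 times the depth of untreated replicate 0, with 61.7% to 73.9% of ratios on a step, so no counts were recovered.

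Groups follow the labels. These do not state that each library is a separate mouse, so the tests compare libraries, whose spread may be partly technical. Log2(FPKM + 1) values were fitted with limma 3.58.1 in R 4.3.3, with group as the only term, a mean trend and robust settings. Adjustment was by Benjamini-Hochberg over the 13286 tested genes, at 0.05. Exact permutation used all 11440 labellings and correlations 100000 resamples, with Python 3.11.15 and scipy 1.17.1, two-sided. The functions were tested on simulated data. The members and lists were chosen with earlier results of these data known. Besides the 8 members, the text names up to 3 tested genes of lowest p per complement list, the 3 genes most like each member, without small RNAs or symbols of predicted and unnamed genes, near-identical copies and markers that describe libraries. Alternatives covered pseudocount, filter, scaling, weights, variance model, covariates, a replicate block and leaving out libraries. Promoters are from RefSeq, GRCm38.p6. The values of 1 gene that this rule takes are not reported here, though counts include it.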

Additional observations from a re-analysis of the deposited data

Results flagged for a closer look

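In 46 groups of 7 or 9 libraries, the gap between the highest or lowest library and its nearest neighbour was compared with the group's range by Dixon's test, on the log2 scale, and 10 groups had a library that stood apart. Chance flags about 1 in 20 groups, and genes that vary together are not separate cases.

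Untreated replicate 3 stood apart in 6 of them. It had C1qb at 552 FPKM, with untreated replicate 7 next at 83.0 FPKM, and C1qc at 428 FPKM, with untreated replicate 4 next at 63.4 FPKM. C3ar1 was at 7.70 FPKM there, with untreated replicate 7 next at 2.29 FPKM, and Cfp was at 91.8 FPKM, with untreated replicate 4 next at 11.3 FPKM. C1rb was at 2.24 FPKM, with untreated replicate 1 next at 0.970 FPKM, and Gm5077 at 4.14 FPKM, with untreated replicate 0 next at 2.16 FPKM.

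RAAS-blocked replicate 6 stood apart in 3. It had Cfb at 125 FPKM, with RAAS-blocked replicate 0 next at 20.5 FPKM. Serping1 was at 266 FPKM there and C1rb at 4.21 FPKM, with RAAS-blocked replicate 1 next in both, at 79.8 FPKM and 1.67 FPKM. In untreated replicate 7 the ratio of C1qc to C1qb was 0.615, below the next untreated value of 0.716 in replicate 0.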

How the results depend on the processing

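The count of members past the threshold was 0 in all 29 alternatives, and in 202 refits of the 7 tested members the lowest adjusted p was 0.402, for Cd55 with array weights. Direction held in 199 of them. It reversed for C1qc (-0.049) and C3ar1 (-0.024) with the macrophage level as a covariate and for C3 without untreated replicate 4, with a range of -0.21 to 0.10 when each library was left out. For C4b, which did not pass the filter, that range was -0.29 to 0.026, positive only without untreated replicate 3. For C1qa to C1qb the log2 difference of the ratio was 0.03 and ranged from -0.0063 to 0.058. The cause of these reversals was not tested. The 345 refits of 12 other complement genes all kept their direction, and 0 passed the threshold.

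Over all genes, 2 passed. The count was 11 with array weights and 0 with the exact permutation test, which had 896 genes at an unadjusted p under 0.05. The smallest p of that test, 8.74e-05, leaves little room to pass after adjustment. The count was 1 with each of upper-quartile scaling, quantile normalization, no trend or robust variance, and the proximal tubule or macrophage covariate. With both untreated replicate 3 and RAAS-blocked replicate 6 left out (chosen after seeing the data) it was also 1. Leaving out each library gave 1 to 6. Deviations of same-numbered libraries had r from -0.28 to 0.43 over 7 pairs, and the own number was the best match in 1. With only 7 pairs this cannot settle whether numbers pair libraries. With the replicate block the count was 1, and 0 members passed. The relation of Cfb with the interferon-gamma genes lost its call with both libraries left out (r = 0.63, adjusted permutation p = 0.0895). The 6 pairs of members held under each of 4 alternatives as a count, and the relations with marker levels numbered 4 to 6. Depth is unknown, which limits what low values such as those of C4b and C3ar1 can show.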
